A study of Mus musculus with 5 samples.

Results

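The genes described here were 10 transcripts of the simple epithelial cell surface and cytoskeleton: the keratins Krt7, Krt8, Krt18, and Krt19, the claudins Cldn3, Cldn4, Cldn6, and Cldn7, occludin (Ocln), and Tjp1, which encodes ZO-1. They were chosen by symbol from 24421 genes, and each had a row in both tables. Gene expression was given as FPKM, fragments scaled by transcript length and by library size, which is per length and so allows genes to be set side by side. There were 5 mouse libraries, 1 per condition, in 2 separately made tables. The first table held mouse embryonic fibroblasts (MEFs; from CF-1 embryos, by the study's methods), induced pluripotent stem cells (iPSCs), and the mouse embryonic stem cell (mESC) line V6.5. The second held V6.5 cells transfected with a non-targeting control shRNA (NTC) and V6.5 cells transfected with an shRNA against Gldc (shGldc). Gldc encodes glycine decarboxylase, an enzyme of the glycine cleavage system. The labels give culture of the iPSCs and V6.5 cells without feeder cells, on gelatin in medium with leukaemia inhibitory factor, and of MEFs in serum medium, so that cell type and medium cannot be told apart. The study's methods name a cell repository, the American Type Culture Collection, as the source of iPS lines, and nothing says that the iPSCs came from these MEFs. The Gldc shRNA was carried by the pLKO vector, by the study's methods, the knockdown is 1 library, and effects of the shRNA sequence and of Gldc loss cannot be told apart. The study's methods also describe stem cell culture on feeder cells and do not say which was used for RNA-seq. V6.5 is 1 established line. With 1 library per condition there is no replicate error, so every ratio compares a pair of libraries and carries no p-value. In bulk RNA, fewer cells of a type and less RNA per cell cannot be told apart.

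Keratins are the intermediate filament proteins of epithelia, and a filament needs 1 type II keratin paired with 1 type I keratin. Krt8 and Krt18 are the first such pair of the mouse embryo and mark simple, single-layered epithelia, with Krt7 (type II) and Krt19 (type I) as the other members of this class. Claudins and occludin are 4-pass membrane proteins that form the strands of tight junctions, the seals between neighbouring epithelial cells. ZO-1 is the cytoplasmic scaffold that ties these strands to actin. mESCs and iPSCs grow as compact epithelial colonies, whereas fibroblasts are mesenchymal cells that use vimentin filaments.

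On mm10 (GRCm38) with the GENCODE M21 annotation, several of the genes were neighbours. Krt8 (chr15:101996698-102004482, minus strand, 9 exons) and Krt18 (chr15:102028180-102032027, plus strand, 7 exons) lay 23697 bp apart with 0 genes between them and were transcribed away from each other. Krt7 (chr15:101411043-101430313, plus strand, 9 exons) lay 566384 bp from Krt8 with 42 genes between, and Krt19 (chr11:100140810-100148665, minus strand, 6 exons) was in the type I cluster. Cldn4 (chr5:134945119-134946934, minus strand) and Cldn3 (chr5:134986214-134987472, plus strand) each had 1 exon and lay 39279 bp apart, also divergent and with 0 genes between. Cldn6 (chr17:23679249-23682446, plus strand, 3 exons) ended 137 bp from Cldn9. Cldn7 was at chr11:69964779-69967885 (plus strand, 4 exons), Ocln at chr13:100496507-100552718 (minus strand, 9 exons), and Tjp1 at chr7:65296165-65527781 (minus strand, 28 exons). The strand setting of the counting is not given in the sources used here, and exons of Krt7, Krt8, and Cldn3 overlapped an annotated gene on the other strand. Of these 3 antisense genes, Wbscr25, opposite Cldn3, had at most 0.218 FPKM, and the others had no row in the tables. Krt8 shared 29.7% of its 50-nt stretches with other transcripts, mostly the pseudogene Krt8-ps, so part of its reads could be placed ambiguously. No other gene of the 10 shared more than 0.916%.

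The upstream sequences are shown because most of them held the letters CACCTG or its reverse complement CAGGTG, an E-box of the kind that the epithelial repressors of the Snail and Zeb families are known to bind. RefSeq promoter sequences (GRCm38.p6) were read for 8 of the 10 genes, in 10 windows, since Cldn7 and Ocln have 2 start sites each. Krt19 had no entry, and Krt8 was not analysed here. In the 250 bases before the start, the E-box was found in 6 of the 10 windows, against 17.2% of 32851 mouse promoters. The 6 genes were Krt7, Krt18, Cldn4, Cldn6, Cldn7, and Ocln, and Cldn3 and Tjp1 had no match. The RefSeq start used for Tjp1 lay 156537 bp inside the GENCODE gene, whose first start was not read. Each match is given on the strand of its gene with up to 12 bases on either side, the E-box in capitals, and with the distance of its first base from the RefSeq start.
Krt18, chr15:102027990-102028019, plus strand, 214 bases before the start: aggggctaacacCACCTGctatcctttgtg
Krt7, chr15:101412347-101412376, plus strand, 44 bases before the start: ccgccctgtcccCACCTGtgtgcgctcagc
Cldn6, chr17:23679260-23679289, plus strand, 93 bases before the start: gggaaacgcacgCAGGTGgctatcgccgca
Cldn7, chr11:69965312-69965341, plus strand, 97 bases before the second start: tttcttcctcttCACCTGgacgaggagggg
Cldn7, chr11:69965352-69965381, plus strand, 57 bases before the second start: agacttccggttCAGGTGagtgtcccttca
Ocln, chr13:100552694-100552723, minus strand, 213 bases before the second start: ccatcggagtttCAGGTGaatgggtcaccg
Ocln, chr13:100552549-100552578, minus strand, 68 bases before the second start: ctaggggctcggCAGGTGggtcccagcgca

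The matches of Krt18 and Cldn4 lay outside annotated genes, and those of Krt7, Cldn6, Cldn7, and Ocln lay in an exon of the gene itself in GENCODE, downstream of the first annotated start. The whole window of Cldn4 is shown because Cldn4 was the most abundant claudin in 4 of the 5 libraries and was the 1 gene of the 8 with an AP-1 sequence. AP-1, searched as TGACTCA or TGAGTCA, was present in 4.46% of all promoters. The Cldn4 window held 2 AP-1 matches, 1 GC box (GGGCGG or CCGCCC, in 32.7% of all promoters), and 1 E-box that began 14 bases before the start, all in capitals.
Cldn4, chr5:134946935-134947184, minus strand: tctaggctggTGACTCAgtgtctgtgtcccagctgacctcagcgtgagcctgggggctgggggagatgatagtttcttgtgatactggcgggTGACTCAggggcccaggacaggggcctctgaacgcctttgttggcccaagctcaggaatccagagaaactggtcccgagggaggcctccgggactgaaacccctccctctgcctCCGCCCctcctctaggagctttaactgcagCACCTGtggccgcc

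The GC box was found in 8 of the 10 windows, of Krt7, Cldn3, Cldn4, Cldn6, Cldn7, Ocln, and Tjp1. The TATA box, searched as TATAAA or TTTATA and present in 12.4% of all promoters, was found in 0 of the 10. A match describes the letters only, and no binding was measured.

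**Figure D1:**
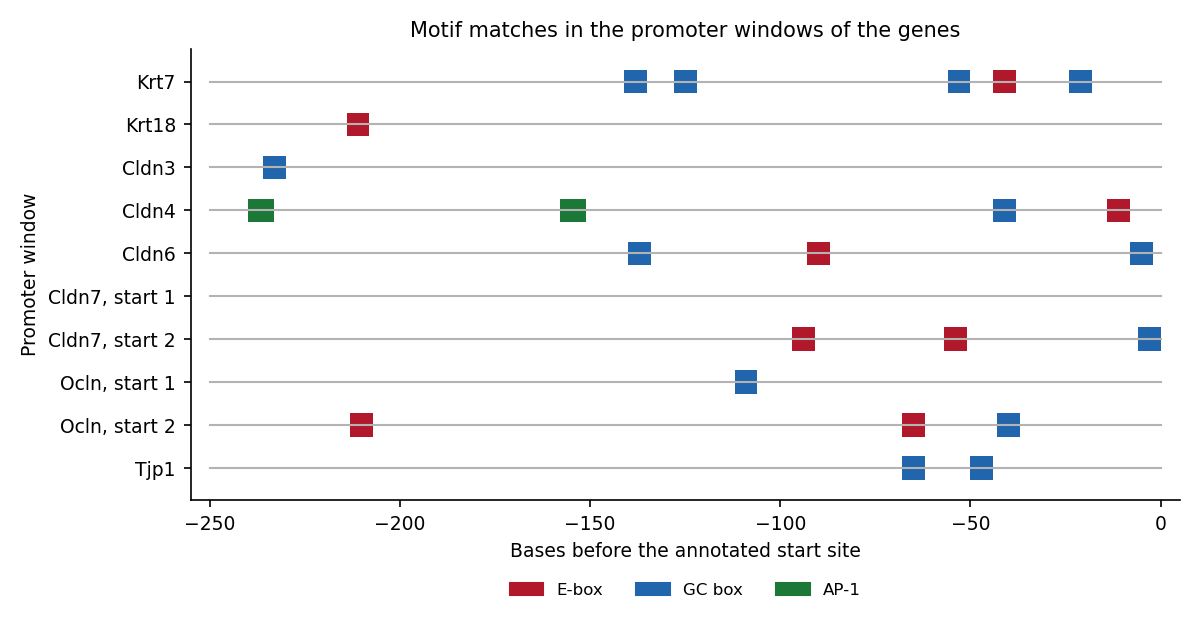
Motif matches in the 250 bases before each RefSeq start site, 1 grey line per promoter window, with the start site at 0 on the horizontal axis in bases. Boxes are E-box (red), GC box (blue), and AP-1 (green) matches on either strand; 6 of the 10 windows hold a red box and 8 a blue one.

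Gldc itself was checked first. It was 0.123 FPKM in MEFs, 70.8 in iPSCs, 59.7 in V6.5 cells, 74.7 in NTC, and 2.07 in shGldc, 36.0-fold lower in shGldc than in NTC. Pluripotency markers (Pou5f1, Nanog, and 8 others) summed to between 3850 and 7218 FPKM in the 4 stem cell libraries and to 3.44 in MEFs. Fibroblast markers (Col1a1, Col3a1, and 8 others) summed to 8150 FPKM in MEFs. They summed to 79.1 in V6.5 cells, 0.970% of the MEF level, and to between 4.68 and 16.2 in the other stem cell libraries. The libraries matched their labels at the level of these markers. Depth, estimated from the step between low values, was 22100000 to 24600000 fragments in the first table and 28700000 to 29000000 in the second, where the step rested on 17 and 27 values and could be off by a factor of 2.

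Across the 10 genes, the 3 cell types differed far more in the claudins and occludin than in Tjp1, and the keratins followed their own pattern. All 10 genes reached 1 FPKM in at least 1 library of every comparison and so were counted in each. In V6.5 cells against MEFs, 6 of the 10 were at least 2-fold higher and 1 was at least 2-fold lower, where 30.3% of 12840 genes were higher and 23.3% lower. In iPSCs against MEFs, 8 of 10 were higher and 0 lower, where 31.5% of 13032 genes were higher and 21.3% lower. In iPSCs against V6.5 cells, 5 of 10 were higher and 0 lower, where 10.1% of 12323 genes were higher and 7.44% lower. These 3 comparisons share libraries and are not independent of each other. The median log2 ratio of the 10 genes was 3.11, 5.36, and 1.47 in the 3 comparisons, against 0.25, 0.31, and 0.04 over all genes that passed the filter. Log2 ratios are of FPKM + 0.1 and understate the difference for low genes.

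Knockdown of Gldc was compared with NTC in the second table. Here 6 of the 10 genes were at least 2-fold higher in shGldc and 0 were lower, where 8.97% of 11969 genes were higher and 7.68% lower. The 6 were all 4 keratins, Cldn6, and Cldn7. The median log2 ratio was 1.24, against 0.04 over all genes. NTC itself stood apart from untreated V6.5 cells for these genes: 0 of 10 were at least 2-fold higher in NTC and 5 were lower (Krt7, Krt19, Cldn4, Cldn6, and Cldn7), where 4.99% of 12048 genes were higher and 10.3% lower. That ratio crosses the separately made tables and includes any difference between them, so the effect of the vector and that of the table cannot be told apart. In shGldc against untreated V6.5 cells, 3 of 10 were higher (Krt8, Krt18, and Krt19) and 1 was lower (Cldn4), where 9.89% of 12237 genes were higher and 13.9% lower. These comparisons share the NTC, shGldc, or V6.5 library.

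**Figure D2:**
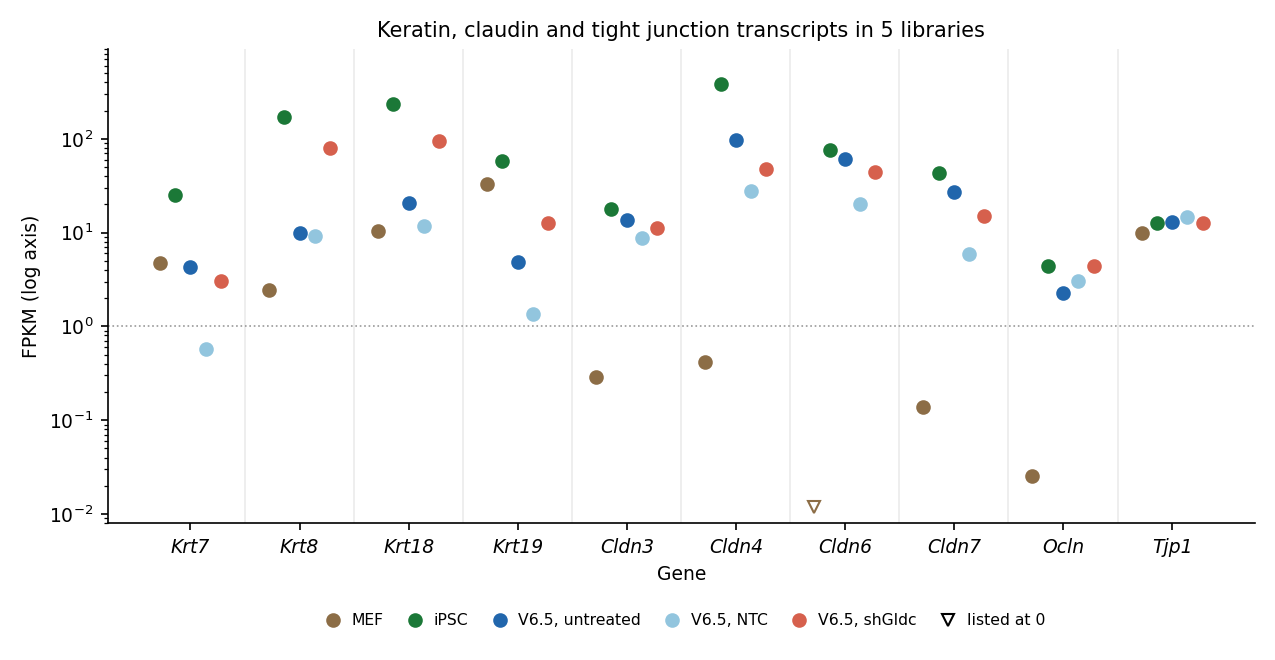
FPKM of each gene on a log axis in the 5 libraries, 1 point per library, with no error bars because each condition was 1 library. The dotted line marks 1 FPKM and the open triangle a value listed at 0; the 4 claudins and Ocln are below 1 FPKM in MEFs and above it in the 4 stem cell libraries, whereas Tjp1 stays between 10.00 and 14.7.

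Krt8, the type II partner of Krt18, had 2.45 FPKM in MEFs, 171 in iPSCs, 9.98 in V6.5 cells, 9.09 in NTC, and 79.4 in shGldc. It was high in iPSCs and in shGldc and low in the other 3 libraries. Krt8 was 70.0-fold higher in iPSCs than in MEFs, 17.2-fold higher in iPSCs than in V6.5 cells, and 8.73-fold higher in shGldc than in NTC (log2 ratios of 6.07, 4.09, and 3.11). Against untreated V6.5 cells, shGldc was 7.95-fold higher, and NTC and V6.5 cells differed by -0.13 on the log2 scale.

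Krt18, the type I partner, had 10.5 FPKM in MEFs, 234 in iPSCs, 20.8 in V6.5 cells, 11.9 in NTC, and 95.4 in shGldc. The order of the libraries was that of Krt8: iPSCs, then shGldc, V6.5 cells, NTC, and MEFs. Krt18 was 22.3-fold higher in iPSCs than in MEFs and 11.3-fold higher than in V6.5 cells, and 8.03-fold higher in shGldc than in NTC. Its difference between V6.5 cells and MEFs was 1.98-fold, just under the 2-fold limit, where Krt8 was 4.07-fold higher. With no spread between replicates, the neighbours at the low end of this order (V6.5 cells, NTC, and MEFs for Krt18) cannot be separated.

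The pair was thus not in a fixed ratio. Krt8 divided by Krt18, both per length, was 0.233 in MEFs, 0.731 in iPSCs, 0.479 in V6.5 cells, 0.765 in NTC, and 0.832 in shGldc. Krt18 was the higher of the pair in all 5 libraries, and the gap was widest in MEFs. Summed, the pair had 406 FPKM in iPSCs and 175 in shGldc, against 13.0 to 30.8 in the other 3 libraries.

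Krt19, a type I keratin of simple epithelia with an unusually short tail, had 32.7 FPKM in MEFs, 57.9 in iPSCs, 4.81 in V6.5 cells, 1.36 in NTC, and 12.8 in shGldc. It was the most abundant keratin of the MEF library and, unlike Krt8 and Krt18, was 6.79-fold lower in V6.5 cells than in MEFs (log2 ratio of -2.74). In iPSCs it was 1.77-fold higher than in MEFs and 12-fold higher than in V6.5 cells. In shGldc it was 9.43-fold higher than in NTC, close to Krt8, and 2.67-fold higher than in untreated V6.5 cells. NTC was 3.53-fold lower than untreated V6.5 cells, so the size of the shGldc ratio depends on which control is used.

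Krt7, a type II keratin found in glandular and ductal epithelia, had 4.70 FPKM in MEFs, 24.9 in iPSCs, 4.26 in V6.5 cells, 0.574 in NTC, and 3.08 in shGldc. MEFs and V6.5 cells were close (log2 ratio of -0.14), and iPSCs were 5.84-fold higher than V6.5 cells. In shGldc Krt7 was 5.36-fold higher than in NTC, but NTC was 7.43-fold lower than untreated V6.5 cells, and shGldc lay below the untreated cells (log2 ratio of -0.46). Krt7 was therefore not above both controls in shGldc. Krt7 divided by Krt19 was 0.144 in MEFs, 0.430 in iPSCs, 0.887 in V6.5 cells, 0.421 in NTC, and 0.239 in shGldc.

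**Figure D3:**
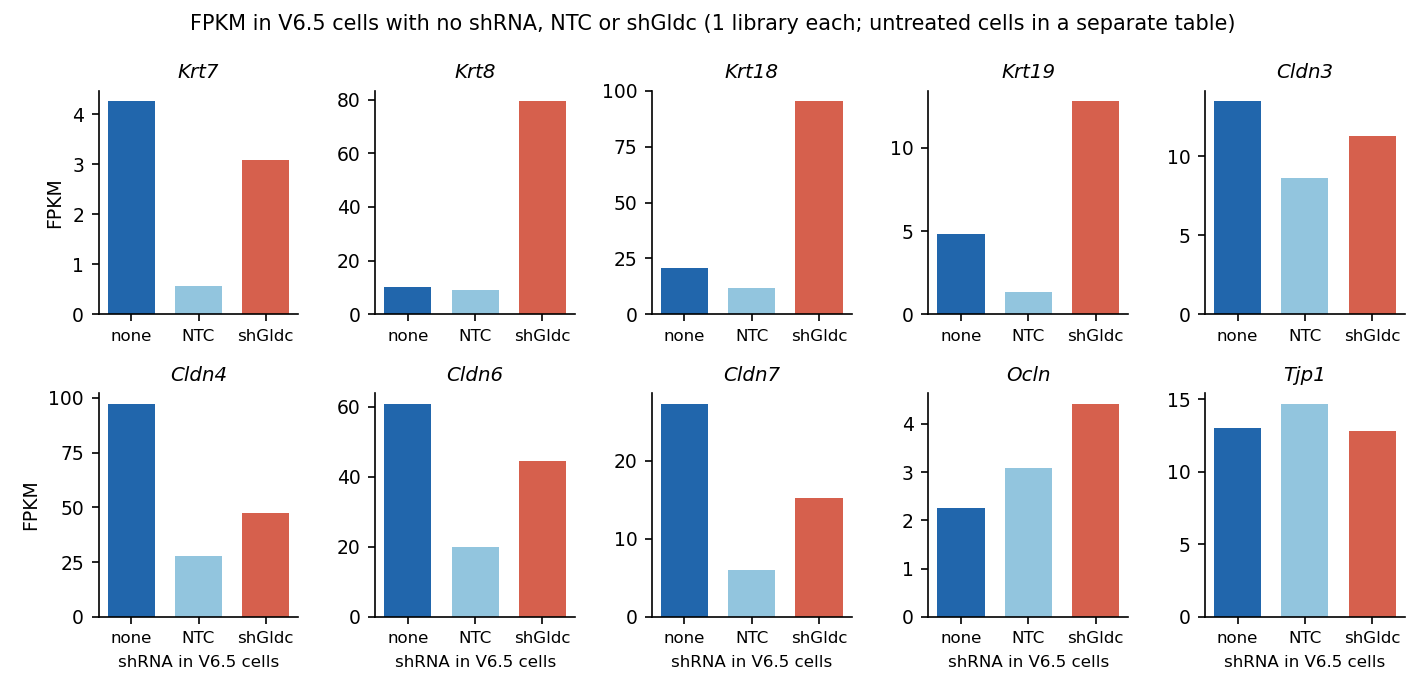
FPKM of each gene in V6.5 cells with no shRNA, with NTC, and with shGldc, as bars from 0 with a separate scale for each gene and 1 library per bar. Krt8, Krt18, and Krt19 stand above both controls in shGldc (79.4, 95.4, and 12.8 FPKM), whereas Krt7 and the 4 claudins lie between NTC and the untreated cells, which are in a separate table.

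Set against both controls, shGldc was above NTC and above untreated V6.5 cells for 4 of the 10 genes (Krt8, Krt18, Krt19, and Ocln), below both for 1 (Tjp1), and between them for 5 (Krt7 and the 4 claudins). Over 12453 genes, 36.1% were above both, 35.1% below both, and 28.8% between. At least 2-fold above both controls were 3 of the 10, namely Krt8, Krt18, and Krt19, where 4.69% of all genes were. In the order of all 11969 log2 ratios of shGldc over NTC, Krt19 was at place 175, Krt8 at 179, Krt18 at 187, and Krt7 at 300 from the top. In iPSCs over V6.5 cells, Krt8 was at place 27, Krt19 at 45, and Krt18 at 49 of 12323.

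The 4 keratins carried nearly all keratin transcripts in some libraries and about as many as the other keratins in others. Of 37 keratins in the tables, they held 90.7% of the summed FPKM in MEFs, 91.1% in iPSCs, 56.8% in V6.5 cells, 51.0% in NTC, and 95% in shGldc. The summed keratin level was 55.5 FPKM in MEFs, 536 in iPSCs, 70.2 in V6.5 cells, 45.0 in NTC, and 201 in shGldc. The make-up changed as well as the sum. Krt19 was 58.8% of keratin transcripts in MEFs, whereas Krt8 and Krt18 together were 75.6% in iPSCs and 87.1% in shGldc.

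Some other keratins went the opposite way to these 4 in shGldc. The type I keratins Krt17, a keratin of stratified and injured epithelia, and Krt42 made up most of the rest in V6.5 cells and NTC. Krt17 had 0.0402 FPKM in MEFs, 15.2 in iPSCs, 12.7 in V6.5 cells, 4.99 in NTC, and 0.672 in shGldc. Krt17 was lower in shGldc than in NTC (log2 ratio of -2.72), opposite in direction to Krt8 and Krt18. Krt42 had 11.5 FPKM in V6.5 cells, 11 in NTC, and 3.75 in shGldc. Among 17 other type I keratins, 5 passed the filter in shGldc over NTC, of which 1 was higher (Krt15, at 1.03 FPKM in shGldc and listed at 0 in NTC) and 3 were lower, where 8.97% and 7.68% of all genes were. Among 16 other type II keratins, 0 reached 1 FPKM in either library. In iPSCs over V6.5 cells, 1 of the 5 type I keratins that passed was higher (Krt20, log2 ratio of 1.03; 10.1% of all genes were higher), at 1.04 FPKM in iPSCs.

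**Figure D4:**
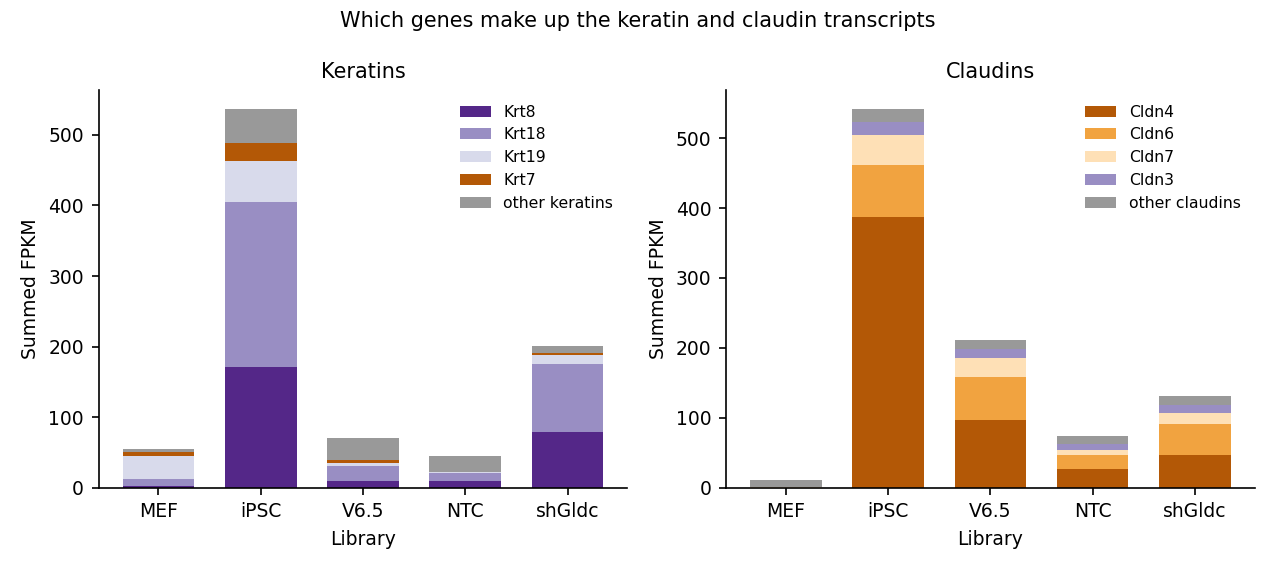
Summed FPKM of all keratins (37 genes, left) and all claudins (23 genes, right) in each library, as stacked bars from 0, with the listed genes coloured and the rest in grey. Krt8 and Krt18 fill most of the bar in iPSCs and shGldc, and Cldn4 is the largest part of the claudin bar in the 4 stem cell libraries, whereas the small MEF bar is nearly all other claudins.

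Cldn4, a claudin of simple epithelia with an extracellular loop that binds Clostridium perfringens enterotoxin, had 0.421 FPKM in MEFs, 387 in iPSCs, 97.3 in V6.5 cells, 27.6 in NTC, and 47.4 in shGldc. It was 920-fold higher in iPSCs than in MEFs and 231-fold higher in V6.5 cells than in MEFs. MEFs held about 18.8 fragments of Cldn4, and the 95% intervals from counting error alone were 583 to 1513 and 147 to 381. Among the stem cell libraries, iPSCs were 3.97-fold higher than V6.5 cells, and NTC was 3.52-fold lower than V6.5 cells. In shGldc Cldn4 was 1.72-fold higher than in NTC and 2.05-fold lower than in untreated V6.5 cells, so its direction turned with the control.

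Cldn3, the divergent neighbour of Cldn4 and also an enterotoxin receptor, had 0.290 FPKM in MEFs, 18.0 in iPSCs, 13.5 in V6.5 cells, 8.65 in NTC, and 11.3 in shGldc. Its 4 stem cell values were within a narrower range than those of Cldn4, with 0.42 on the log2 scale between iPSCs and V6.5 cells and 0.38 between shGldc and NTC. It was 62.3-fold higher in iPSCs than in MEFs and 46.6-fold higher in V6.5 cells (95% counting intervals of 32.5 to 137 and 24.2 to 102). Cldn3 divided by Cldn4 was 0.689 in MEFs, on about 8.98 and 18.8 fragments. This ratio was 0.0466, 0.139, 0.313, and 0.238 in iPSCs, V6.5 cells, NTC, and shGldc. Cldn3 and Cldn4 shared the order of libraries (iPSCs, V6.5 cells, shGldc, NTC, MEFs), as did Cldn6 and Cldn7, but not the size of the differences.

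Cldn6, a claudin of embryonic epithelia and pluripotent cells, was listed at 0 in MEFs and had 75.0 FPKM in iPSCs, 60.9 in V6.5 cells, 20 in NTC, and 44.4 in shGldc. At the depth of the MEF library, 3 fragments of Cldn6 correspond to 0.0751 FPKM, the upper limit that a count of 0 allows. It was 2.22-fold higher in shGldc than in NTC and 3.05-fold lower in NTC than in untreated V6.5 cells. Its neighbour Cldn9 had 0.0564 FPKM in MEFs, 2.95 in iPSCs, 2.17 in V6.5 cells, 0.311 in NTC, and 0.335 in shGldc. Cldn6 was 25.4 to 132 times the level of Cldn9 in the 4 stem cell libraries. Cldn6 was higher in shGldc than in NTC, whereas Cldn9 was nearly equal in the pair at about 13.0 and 13.9 fragments.

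Cldn7, a claudin of the lateral membrane that binds EpCAM, had 0.138 FPKM in MEFs, 43.0 in iPSCs, 27.3 in V6.5 cells, 5.95 in NTC, and 15.2 in shGldc. MEFs held about 4.55 fragments of Cldn7, so the 311-fold difference of iPSCs from MEFs had a 95% counting interval of 121 to 872, and the 197-fold difference of V6.5 cells one of 76.5 to 553. In shGldc Cldn7 was 2.55-fold higher than in NTC, which was 4.58-fold lower than untreated V6.5 cells. shGldc lay below the untreated cells (log2 ratio of -0.84) by less than 2-fold.

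The 4 claudins had the same order of libraries, iPSCs highest and MEFs lowest with NTC the lowest of the stem cell libraries. They summed to 0.848 FPKM in MEFs, 523 in iPSCs, 199 in V6.5 cells, 62.2 in NTC, and 118 in shGldc. Of 23 claudins in the tables, they held 7.58% of the summed FPKM in MEFs, where Cldn12 was highest at 7.60 FPKM, and 83.3% to 96.7% in the stem cell libraries. Cldn4 was 71.5% of claudin transcripts in iPSCs, 46.2% in V6.5 cells, 37.0% in NTC, and 36.1% in shGldc. Cldn6 was 13.9% in iPSCs and 26.8% to 33.9% in the 3 V6.5 libraries. In shGldc over NTC, 3 other claudins passed the filter, of which 0 were higher and 1 was lower (Cldn19, log2 ratio of -1.93), where 8.97% and 7.68% of all genes were.

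Ocln, the tight junction strand protein next to the claudins, was the scarcest of the 10 genes in iPSCs and V6.5 cells. It had 0.0255 FPKM in MEFs, 4.42 in iPSCs, 2.25 in V6.5 cells, 3.08 in NTC, and 4.42 in shGldc. MEFs were at about 2.54 fragments, so the ratios of 174-fold for iPSCs and 88.4-fold for V6.5 cells had 95% counting intervals of 50 to 717 and 25.3 to 366. Within the 4 stem cell libraries Ocln differed by less than 2-fold in each comparison, with log2 ratios of 0.94 for iPSCs over V6.5 cells and 0.51 for shGldc over NTC. Its NTC value was not lower than that of untreated V6.5 cells (log2 ratio of 0.43), unlike the claudins.

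Tjp1 had 10.00 FPKM in MEFs, 12.7 in iPSCs, 13.0 in V6.5 cells, 14.7 in NTC, and 12.8 in shGldc. All 5 libraries lay within 1.47-fold, the smallest range of the 10 genes. The log2 ratio was 0.38 for V6.5 cells over MEFs and -0.20 for shGldc over NTC. The scaffold was thus at a similar transcript level in the stem cells and in MEFs, where the 4 claudins and Ocln were below 1 FPKM.

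**Figure D5:**
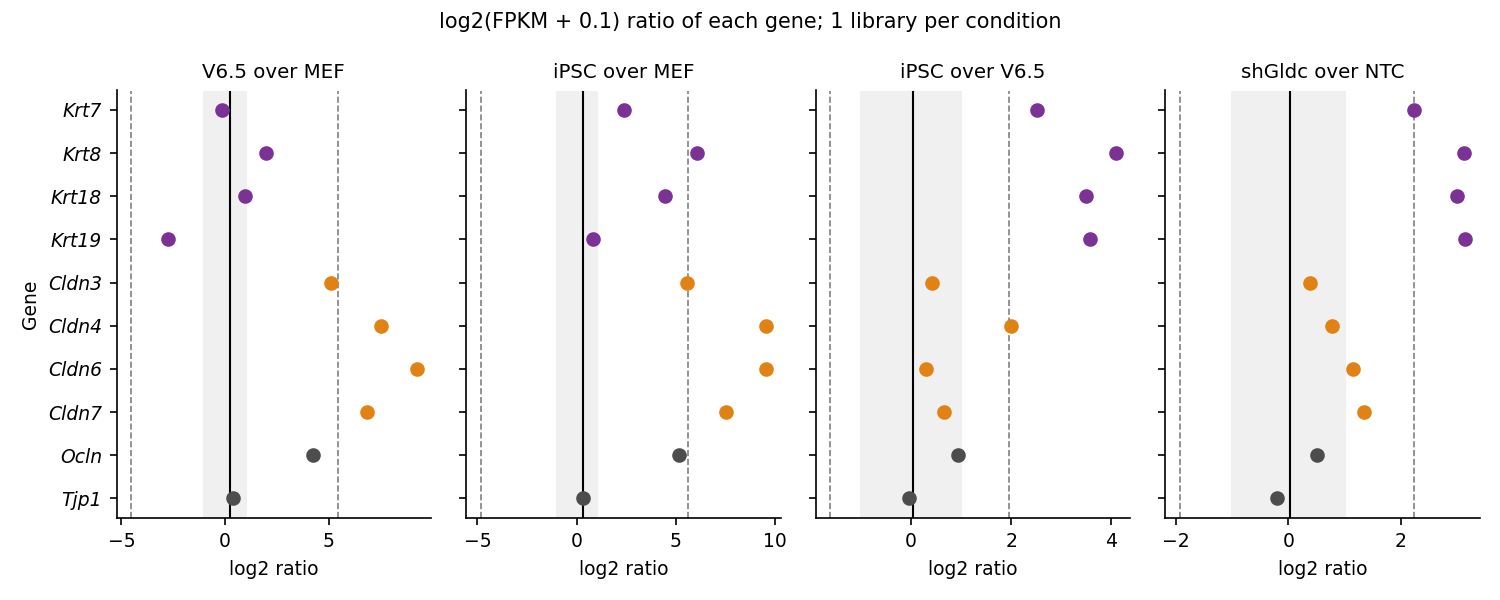
Log2 ratio of FPKM + 0.1 for each gene in 4 comparisons of 1 library with 1 library, with keratins in purple, claudins in orange, and Ocln and Tjp1 in grey. The grey band is within 2-fold, the black line the median of all genes that passed the filter, and the dashed lines enclose the central 95% of those genes; all 4 keratins lie to the right of the band in iPSC over V6.5 and in shGldc over NTC, where Tjp1 lies at -0.04 and -0.20.

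Other genes of the tight junction were read as well. The list held 25 genes of strands, scaffolds, and polarity proteins, of which 24 passed the filter: 11 were at least 2-fold higher and 2 lower in V6.5 cells than in MEFs, and 13 were higher and 4 lower in iPSCs. The shares of all genes were 30.3% and 23.3% in V6.5 cells, and 31.5% and 21.3% in iPSCs. The most different was Crb3, an apical polarity protein, listed at 0 in MEFs and at 41.7 FPKM in iPSCs and 29.3 in V6.5 cells. In shGldc over NTC, 3 of 23 were higher and 1 was lower, near the 8.97% and 7.68% of all genes. The highest was Marveld2 (tricellulin, the strand protein of corners where 3 cells meet), at 0.70 FPKM in NTC and 2.46 in shGldc but 2.43 in untreated V6.5 cells, and the lowest was the scaffold Tjp3 (ZO-3), at 10.9 and 5.36. Over untreated V6.5 cells, 1 of 23 was higher and 5 were lower in shGldc, where 9.89% and 13.9% of all genes were. Tjp3 had 0.0361 FPKM in MEFs, 15.6 in iPSCs, and 34.7 in V6.5 cells. Between MEFs and V6.5 cells, Tjp3 thus differed far more than Tjp1.

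Keratin filaments attach to desmosomes and hemidesmosomes. Of 18 genes of these anchors, 7 of 11 that passed were higher and 1 was lower in V6.5 cells than in MEFs, and 8 of 12 were higher and 1 lower in iPSCs, with the same shares of all genes as above. The highest was Dsg2, a desmosomal cadherin, at 0.0529 FPKM in MEFs, 10.7 in iPSCs, and 10.3 in V6.5 cells, and the lowest was Plec, at 39.1, 10.1, and 9.18. Desmoplakin (Dsp), the protein that binds keratin filaments to the desmosome, had 0.336 FPKM in MEFs, 2.11 in iPSCs, 4.96 in V6.5 cells, 0.769 in NTC, and 2.48 in shGldc. In shGldc over NTC, 2 of 11 were higher and 0 were lower (8.97% and 7.68% of all genes), and Dsp was the highest with a log2 ratio of 1.57. Over untreated V6.5 cells, 0 of 11 were higher and 1 was lower in shGldc, near the 9.89% and 13.9% of all genes. Dsp was lower in shGldc than in those cells, so its direction turned with the control. Dsp was lower in iPSCs than in V6.5 cells (log2 ratio of -1.20), opposite to Krt8 and Krt18.

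Cdh1 (E-cadherin), the cadherin of adherens junctions, had 0.0408 FPKM in MEFs, 94.2 in iPSCs, 102 in V6.5 cells, 89.7 in NTC, and 79.4 in shGldc. Of 10 adherens junction genes, 4 were higher and 2 lower in V6.5 cells than in MEFs, near the 30.3% and 23.3% of all genes, and 0 were called 2-fold apart on the log2(FPKM + 0.1) scale in iPSCs over V6.5 cells or in shGldc over NTC. Epcam, the partner of Cldn7, had 0.0982 FPKM in MEFs, 93.0 in iPSCs, 77.2 in V6.5 cells, 37.7 in NTC, and 49.9 in shGldc. The keratin difference between shGldc and NTC was thus not accompanied by a 2-fold difference in E-cadherin or Epcam.

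Vimentin (Vim), the main filament of fibroblasts, had 3074 FPKM in MEFs, 5.79 in iPSCs, 70.2 in V6.5 cells, 154 in NTC, and 129 in shGldc. It was lowest in iPSCs, where Krt8 and Krt18 were highest, but was similar in NTC and shGldc. Among 14 intermediate filament genes other than keratins, 3 of 12 were higher in shGldc than in NTC and 0 were lower (8.97% and 7.68% of all genes), with Sync highest at 0.169 FPKM in NTC and 1.14 in shGldc but 0.927 in untreated V6.5 cells. Over untreated V6.5 cells, 3 of 13 were higher and 3 were lower in shGldc, where 9.89% and 13.9% of all genes were.

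Regulators and other genes typical of epithelial cells (18 genes, mostly transcription factors, with the splicing factors Esrp1 and Esrp2, the GTPase Rab25, and the protease St14) and 6 repressors of epithelial genes were read as lists. All 6 repressors (Snai1, Snai2, Zeb1, Zeb2, Twist1, and Twist2) were at least 2-fold lower in V6.5 cells and in iPSCs than in MEFs, where 23.3% and 21.3% of all genes were, with median log2 ratios of -4.30 and -4.14. Snai1, a repressor of E-cadherin and claudins, had 26.9 FPKM in MEFs, 7.65 in iPSCs, 2.74 in V6.5 cells, 3.22 in NTC, and 17.1 in shGldc. In iPSCs and in shGldc, Snai1, Krt8, Krt18, and Krt19 were all higher than in V6.5 cells and NTC. Of the 6 repressors, 4 passed in iPSCs over V6.5 cells, with 2 higher and 1 lower (Twist2, log2 ratio of -2.98). In shGldc over NTC 3 passed, with 1 higher (Snai1) and 0 lower, and Zeb1 was at -0.40. Of all genes, 10.1% were higher and 7.44% lower in the first comparison, and 8.97% and 7.68% in the second. Of the 18 genes, 10 of 12 that passed were higher in V6.5 cells than in MEFs and 14 of 15 in iPSCs, where 30.3% and 31.5% of all genes were. In shGldc over NTC, 2 of 15 were higher (8.97% of all genes) and 1 was lower, Tfap2a (log2 ratio of -2.44). Over untreated V6.5 cells, 4 of 14 were higher and 4 were lower in shGldc, where 9.89% and 13.9% of all genes were. Cdx2, a factor of trophectoderm and intestine that was 1 of those higher, was listed at 0 in MEFs and had 3.34 FPKM in iPSCs, 0.274 in V6.5 cells, 5.41 in NTC, and 33.3 in shGldc. Elf3, an epithelial factor, had 84.6 FPKM in iPSCs, 59.7 in V6.5 cells, 68.1 in NTC, and 111 in shGldc.

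Krt8, Krt18, Krt7, and Krt19 are also made by trophectoderm and endoderm, so markers of these cell types were read beside the keratin result. Of 10 trophoblast markers, 7 passed in shGldc over NTC, with 3 higher and 1 lower (8.97% and 7.68% of all genes). Beside untreated V6.5 cells, 4 of 8 were higher and 1 was lower (9.89% and 13.9% of all genes). The 10 markers summed to 76.5 FPKM in NTC and 98.8 in shGldc, against 83.5 in V6.5 cells, 100 in iPSCs, and 4.37 in MEFs. From NTC to shGldc, Cdx2 went from 5.41 to 33.3 FPKM, whereas Tfap2c (45.8 to 38.4), Ascl2 (7.44 to 3.22), and Tead4 (9.24 to 6.51) were lower. Gcm1 was listed at 0 in NTC and at 5.05 FPKM in shGldc, whereas Tpbpa was listed at 0 in all 5 libraries and Elf5 was at most 0.0691 FPKM. Of 10 primitive endoderm markers, 6 passed, with 4 higher and 0 lower in shGldc over NTC (8.97% and 7.68% of all genes). The counts were the same over untreated V6.5 cells, beside 9.89% and 13.9% of all genes. These markers summed to 18.3 FPKM in NTC and 37.6 in shGldc. Gata6 had 3.56 FPKM in MEFs, 4.46 in iPSCs, 0.646 in V6.5 cells, 0.462 in NTC, and 8.22 in shGldc. Gata6 was thus higher in iPSCs and shGldc than in V6.5 cells and NTC. Cdx2, given above, is also on the trophoblast list. In iPSCs over V6.5 cells, 4 of 7 trophoblast markers and 4 of 6 primitive endoderm markers were higher and 0 were lower, where 10.1% and 7.44% of all genes were. The part of cells of these types in the keratin levels was not tested. Pluripotency markers in shGldc over NTC were within 2-fold for 9 of 10, with Fgf4 lower (log2 ratio of -1.73). Of all genes 7.68% were lower, and the median log2 ratio was 0.04, against -0.56 for the markers. The highest marker was Dppa5a, at 0.32. Over untreated V6.5 cells 4 of 10 were lower and 0 higher, where 13.9% and 9.89% of all genes were. The study reports lower pluripotency gene expression after Gldc knockdown, by gene set analysis, qRT-PCR, and Western blot.

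Markers of other epithelia were read as well. Trp63, the defining factor of basal epidermis, was at most 0.0166 FPKM, and the sum of 8 basal epidermal markers was almost entirely Sfn in the stem cell libraries. Sfn had 1.40 FPKM in MEFs, 135 in iPSCs, 131 in V6.5 cells, 38.3 in NTC, and 96.2 in shGldc. Mesothelium, which also makes keratins, was looked for because Krt19 was high in MEFs. Of 5 mesothelial markers, 4 were at or above 1 FPKM in MEFs and their sum was 16.1 FPKM, against 3.24 to 4.61 in the other libraries; Msln had 5.47 FPKM in MEFs. Macrophage markers (Csf1r, C1qa, and 5 others) summed to 300 FPKM in MEFs and 10.9 to 20.6 elsewhere, where most of the sum was Cd68. Endothelial markers summed to 2.40 in MEFs and 19.9 to 42.1 in the stem cell libraries, mostly Pecam1, while Cdh5, a defining marker, was at most 0.249 FPKM there. Their part in the levels of the 10 genes was not tested.

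The nearest genes in profile were found as those with the smallest root mean square difference of log2 values after each gene was centred over the 5 libraries, among 9879 genes with at least 5 FPKM in a library. The measure describes 5 libraries across both tables. Krt18 was the nearest gene to Krt8, at 0.67, where the median over all genes was 2.18. Near Krt18 were Mir7005, which lies within Lama5 and may hold its reads, at 0.42, and Krt8 at 0.67. Id2 and Cxcl16 were among the 3 nearest to both Krt7 and Krt19, with Id2 at 0.59 and 0.69 and Cxcl16 at 0.71 and 0.63. Atf3 was nearest to Krt19, at 0.61. Krt7 and Krt19 thus shared neighbours that Krt8 and Krt18 did not have among their nearest 3.

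The claudins had neighbours of a different profile. Epcam (0.34) and Nodal (0.37) were nearest to Cldn6, Sfn (0.39) to Cldn7, Cyct (0.38) and Ap1m2 (0.43) to Cldn4, and Rimklb (0.16) and Hook1 (0.17) to Cldn3. Ap1m2 is the adaptor subunit for sorting to the basolateral membrane of epithelial cells. No claudin had a keratin as its nearest of the other 9 genes, since Cldn7 was nearest to Cldn3 and Cldn4, and Cldn4 to Cldn6 and Cldn7. Tjp1, which hardly varied, was nearest to Rbm33 at 0.02, and many genes of even level lie as close (median over all genes of 0.54). Ocln did not reach 5 FPKM and was left out.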

How the data were processed

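RNA-seq was done on 5 mouse libraries. The authors extracted RNA with TRIzol and made libraries with the NEBNext Ultra kit. Per the labels and the study's methods, reads were mapped to mm10 with TopHat2 2.1.0, transcripts were assembled with StringTie 1.3.4d, and expression was computed with Ballgown. The submitters' notes also name mm9 and SAMtools 1.7. The authors deposited FPKM values, in 2 separately made tables of 24421 genes. The second table names its knockdown column sh3, which was taken as shGldc. The gene annotation and strand setting are not given in the sources used here.

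Ratios are differences of log2(FPKM + 0.1) between single libraries, over genes with at least 1 FPKM in either, and a call is a 2-fold difference. No test was possible with 1 library per condition. The 10 genes and all lists were chosen with earlier results of these data known. All 10 genes were named in every library, besides Gldc, listed partners, cell type markers, the highest and lowest ratio of each list, and the 3 nearest genes in profile. Overlapping and neighbouring genes were named for their position. Of the lists, Cldn25 and Nectin2 matched no row. Fragment numbers came from the spacing of low FPKM values times transcript length, over 5723 genes with 1 transcript. Intervals cover counting error only, at 95%. Alternatives were pseudocounts of 1 and 0.01, filters of 0 and 5 FPKM, a 4-fold call, equal FPKM sums, centred ratios, and untreated V6.5 cells as the control. Ratio and step calculations were tested on simulated data. Python 3.11.15, numpy 2.4.6, pandas 2.3.3, and matplotlib 3.10.9 were used. The promoter table was RefSeq GRCm38.p6, and protein sequences were not used here. A few genes and 1 promoter are not reported here.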

Additional observations from a re-analysis of the deposited data

Results flagged for a closer look

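For Krt7 and Krt19, the ratio over the same MEF library had opposite signs in the embryonic and in the induced stem cells. Krt7 had a log2 ratio of -0.14 in V6.5 cells over MEFs and of 2.38 in iPSCs over MEFs. Krt19 had -2.74 in V6.5 cells over MEFs and 0.83 in iPSCs over MEFs. Each value compares 1 library with 1 library, so the difference between the stem cells was not tested, and the first Krt7 value is close to 0.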

How the results depend on the processing

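No paired analysis was possible because each condition was 1 library, and for the same reason no library could be left out. Of 58 counts of genes at least 2-fold apart under the alternatives, 56 were within 1.5 times the reported count. The exceptions came from setting shGldc against untreated V6.5 cells in place of NTC, with 3 genes higher in place of 6 and 1 lower in place of 0. With that control, the log2 ratios of Krt7 (-0.46), Cldn6 (-0.46), and Cldn7 (-0.84), which were at least 2-fold higher over NTC, and of Cldn3 (-0.26) and Cldn4 (-1.04) changed sign, while Krt8, Krt18, and Krt19 were still at least 2-fold higher. The control and the table cannot be told apart here. Equal FPKM sums and centring moved 0 of 40 ratios each by more than the spread between NTC and V6.5 cells (0.59 on the log2 scale). A pseudocount of 1 moved 12 ratios and one of 0.01 moved 6. Of these, 2 were in shGldc over NTC, where a pseudocount of 1 gave 1.37 for Krt7 and 2.55 for Krt19, still at least 2-fold, and the others were ratios over MEFs for claudins and Ocln. Depth limits the claudins and Ocln in MEFs, where Cldn6 and Ocln were at or under 3 fragments. With both at that floor, the median log2 ratios over MEFs were 3.08 and 5.33.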

Other observations

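Some relatives of the 10 genes had patterns of their own. Nefm, a neurofilament gene, had 0.238 FPKM in V6.5 cells and 1.02 in iPSCs, but 13.6 in NTC and 18.5 in shGldc, so that both shRNA libraries were high and the untreated stem cells low. Krt23, a type I keratin, was listed at 0 in V6.5 cells and had 2.35 FPKM in NTC and 1.27 in shGldc. Crb3 went the other way, at 41.7 FPKM in iPSCs and 29.3 in V6.5 cells, and 5.96 in NTC and 3.85 in shGldc. These differences follow the tables, which were made separately, and table, vector, and culture cannot be told apart. Cldn5, the main claudin of endothelium, was listed at 0 in MEFs and had 1.34 FPKM in iPSCs, 1.57 in V6.5 cells, 3.95 in NTC, and 2.73 in shGldc. Cldn1, a claudin of the epidermis, had 1.11 FPKM in MEFs and at most 0.0644 in the stem cell libraries.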
